A study of Mus musculus with 12 samples.

Results

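Respiratory complex I (NADH:ubiquinone oxidoreductase) is the entry point of electrons from NADH into the mitochondrial respiratory chain. The 36 genes described here are nuclear genes named for its subunits. They were taken from a list of symbols matched to the Ensembl gene IDs of the count files, and they make up 36 of the 49671 genes in the files. All 36 were found, all 36 were kept by the filter on low counts, and the lowest count of any member in any library was 191. The members lie on 15 chromosomes, so they do not form a genomic cluster.

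Complex I has an L shape. Its matrix arm holds the N module, which oxidises NADH on a flavin, and the Q module, which passes the electrons along iron-sulfur clusters to ubiquinone. Its membrane arm, with a proximal and a distal part, pumps protons. A core that is conserved from bacteria carries out the catalysis. Part of the core is encoded in the nucleus and part in mitochondrial DNA, and accessory subunits surround it. In T cells the complex has been studied as a site that regenerates NAD+ and as a source of superoxide. Regulatory T cells (Tregs), which restrain other immune cells and carry the transcription factor Foxp3, are known to lean on oxidative phosphorylation. Of the members, 6 are core subunits (Ndufv1, Ndufv2, Ndufs1, Ndufs3, Ndufs7 and Ndufs8). By place, 8 members belong to the N module, 7 to the Q module, 9 to the proximal and 10 to the distal membrane arm. Ndufab1 is the mitochondrial acyl carrier protein, which complex I shares with fatty acid synthesis, and Ndufa4 has its name from complex I but is now regarded as a subunit of complex IV.

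The libraries came from mice of the C57BL/6 strain, 8 weeks old, that were either mutant or wild type (WT) for Gclc, the catalytic subunit of the enzyme that makes the first, rate-limiting step of glutathione synthesis. Each genotype was measured in 2 kinds of Treg. The iTregs were differentiated in culture from naive CD4+ T cells, and the nTregs were Tregs sorted directly from the animals. This gave 4 groups of 3 libraries, namely iTreg Gclc mutant, iTreg WT, nTreg Gclc mutant and nTreg WT. The labels do not give the allele, any Cre driver, the organ or any pooling of animals. They do not say whether each library stands for its own animal or culture, so p-values measure the spread between these libraries, which may be technical. The replicate numbers are 1, 2 and 4 in the mutant groups and 1, 2 and 3 in the WT groups, and values below are listed in that order.

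The libraries held between 28707579 and 39886130 gene counts. Levels are CPM, a gene's counts brought to a common library size. That size was scaled by TMM, which assumes most genes keep their level, with factors of 0.909 to 0.953 in iTreg mutant, 0.974 to 0.999 in iTreg WT, 1.026 to 1.099 in nTreg mutant and 1.010 to 1.035 in nTreg WT libraries. Gclc stood at 45.8, 41.7 and 43.2 CPM in nTreg mutant against 78.7, 79 and 70.8 CPM in nTreg WT libraries, and at 18.8, 21 and 19 CPM in iTreg mutant against 56.5, 53.2 and 51.9 CPM in iTreg WT libraries, lower in every mutant library. Foxp3 stood at 135, 181 and 217 CPM in nTreg mutant against 610, 564 and 559 CPM in nTreg WT libraries, and at 107, 96.4 and 75.5 CPM in iTreg mutant against 300, 287 and 291 CPM in iTreg WT libraries. Of the 6 Treg markers, which include Foxp3, 0 rose and 2 fell in nTreg mutants, with sums of 2280 to 2890 CPM in mutant and 3210 to 3530 CPM in WT libraries. In iTreg mutants 1 (Il2ra) rose and 1 (Foxp3) fell, with sums of 2430 to 2640 CPM in mutant and 2280 to 2470 CPM in WT libraries. The 10 markers of CD8 T and NK cells summed to between 169 and 1600 CPM in nTreg mutant and between 57.1 and 72 CPM in nTreg WT libraries. All 10 were higher in the mutant, and nTreg mutant library 1 held the 1600 CPM. The 9 myeloid markers summed to between 80.2 and 107 CPM in nTreg mutant and between 54.6 and 56.3 CPM in nTreg WT libraries, and the 8 B cell markers to between 249 and 474 against between 323 and 515 CPM. The 7 erythroid markers summed to between 178 and 884 CPM in nTreg mutant and between 111 and 389 CPM in nTreg WT libraries. For the 5 plasma cell markers the sums were 132 to 167 CPM in nTreg mutant and 153 to 202 CPM in nTreg WT libraries. In iTregs the CD8 and NK markers summed to between 51.3 and 72.3 CPM in the mutant and between 34.3 and 45.4 CPM in WT, and the B cell markers to between 3.04 and 3.55 against between 2.48 and 3.68 CPM. In bulk samples such as these, fewer cells of a type and less RNA per cell cannot be told apart.

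In sorted nTregs the complex I genes stood higher in the Gclc mutant than in WT. By edgeR's quasi-likelihood test with Benjamini-Hochberg adjustment over all 17977 genes tested, called below 0.05, 18 of the 36 members rose and 0 fell. Over all genes 19.3% rose and 15.6% fell, so that the members' share of higher calls was above the background and their share of lower calls below it. Of the 36 members, 35 had a positive log2 fold change, and their median was 0.26, beside 0.04 over all genes tested. For 22 members every mutant library lay above every WT library, and for 0 every mutant library lay below, where over all genes tested the groups separated in this way for 25.7% (higher) and 22.6% (lower). The summed member CPM at the plain library size, which uses no TMM factor, was 1260, 1160 and 1110 in nTreg mutant and 936, 945 and 983 in nTreg WT libraries. The 3 mutant libraries were thus all above the 3 WT libraries, with means of 1180 ± 76.4 and 955 ± 24.9 (SD, n = 3 each).

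**Figure D1:**
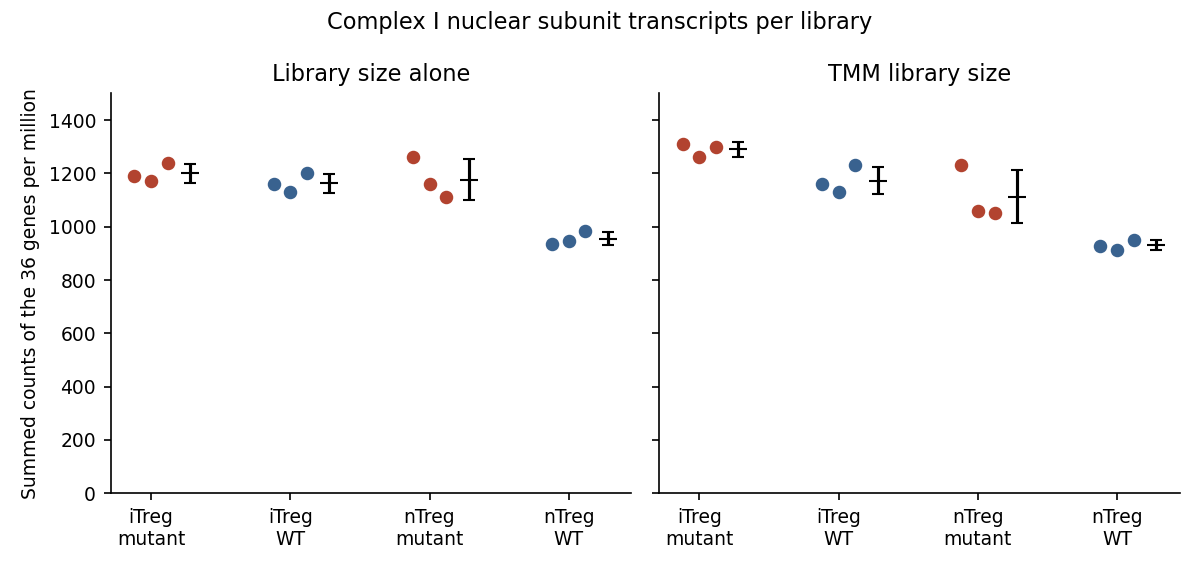
Summed CPM of the 36 complex I members at the plain library size and at the TMM library size, by group, with 1 point per library and the mean ± SD over 3 libraries. The nTreg mutant libraries lie above all nTreg WT libraries on both scales, whereas iTreg mutant libraries lie apart from iTreg WT libraries on the TMM scale but overlap them on the library-size scale (1190, 1170 and 1240 against 1160, 1130 and 1200).

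Members of every module rose in nTreg mutants. In the N module 4 of 8 members rose, in the Q module 3 of 7, in the proximal membrane arm 6 of 9 and in the distal membrane arm 4 of 10, and none fell. Their medians were 0.26, 0.19, 0.42 and 0.22 on the log2 scale. Ndufa4 rose as well (0.34 ± 0.08 SE, adjusted p = 0.00728 by edgeR), while Ndufab1 did not pass (0.05 ± 0.06, adjusted p = 0.546).

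Among the core subunits, Ndufv2 (ENSMUSG00000024099, GRCm38 chromosome 17, 66078795 to 66101559, minus strand), which carries an iron-sulfur cluster beside the flavin subunit, had 68.6, 62.2 and 64.9 CPM in nTreg mutant and 52.7, 54.5 and 50.2 CPM in nTreg WT libraries. The log2 fold change was 0.31 ± 0.07 SE (edgeR adjusted p = 0.00579), and the groups did not overlap. Ndufs8, a Q module subunit with a pair of iron-sulfur clusters, had 26.4, 24 and 20.8 CPM in nTreg mutant and 18.8, 18.1 and 19.4 CPM in nTreg WT libraries, a difference of 0.34 ± 0.11 (adjusted p = 0.027) with no overlap. The other 4 did not pass. Ndufv1, the flavin-binding subunit, had 45.9, 44 and 39.4 CPM in nTreg mutant against 37.6, 37.1 and 39.3 CPM in nTreg WT libraries (0.18 ± 0.07, edgeR adjusted p = 0.0688). Ndufs1, the largest subunit, which carries several clusters, had 105, 79.2 and 84.1 CPM in nTreg mutant against 77.8, 79.5 and 79.1 CPM in nTreg WT libraries (0.18 ± 0.09, adjusted p = 0.145), and mutant library 1 stood furthest above WT. Ndufs3 had 44, 37.5 and 38 CPM in nTreg mutant against 39.7, 37.7 and 38.8 CPM in nTreg WT libraries (0.04 ± 0.08, adjusted p = 0.714). Ndufs7, which holds the last cluster before ubiquinone, had 10.9, 11.9 and 10.2 CPM in nTreg mutant against 9.2, 9.67 and 12.5 CPM in nTreg WT libraries (0.07 ± 0.15, adjusted p = 0.74), and its groups overlapped.

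The members with the smallest p in nTregs were accessory subunits, most of them of the proximal membrane arm. Ndufa10 (ENSMUSG00000026260, GRCm38 chromosome 1, 92439010 to 92473860, minus strand), whose fold resembles a nucleoside kinase, had 68.1, 57.3 and 56.4 CPM in nTreg mutant and 44.1, 43.6 and 44.1 CPM in nTreg WT libraries. It rose by 0.46 ± 0.08 on the log2 scale (edgeR adjusted p = 0.00102). Ndufa12 (ENSMUSG00000020022, GRCm38 chromosome 10, 94198955 to 94221443, plus strand), an N module subunit that takes the place of the assembly factor Ndufaf2, had 23.4, 21.2 and 19.5 CPM in nTreg mutant and 15.2, 14.9 and 13.5 CPM in nTreg WT libraries, 0.55 ± 0.09 higher (adjusted p = 0.00113). In both genes the lowest mutant library was well above the highest WT library.

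Ndufa8, a subunit on the intermembrane side with paired cysteine motifs, had 27.5, 24 and 24.6 CPM in nTreg mutant and 18.8, 18.3 and 19 CPM in nTreg WT libraries (0.44 ± 0.08, edgeR adjusted p = 0.00222). Ndufc1 and Ndufc2 are small membrane subunits. Ndufc1 had 11.9, 9.79 and 9.67 CPM in nTreg mutant and 7.5, 6.67 and 6.91 CPM in nTreg WT libraries (0.57 ± 0.11, adjusted p = 0.00269), the largest fold change of any member in this comparison. Ndufc2 had 25.6, 20.3 and 20.3 CPM in nTreg mutant and 14.7, 15.2 and 16.9 CPM in nTreg WT libraries (0.50 ± 0.10, adjusted p = 0.00304). All 3 genes showed separate groups, and mutant library 1 was the highest of its group for each.

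The other members called higher were Ndufb9, Ndufs6, Ndufb6, Ndufa9, Ndufb8, Ndufb10, Ndufa11, Ndufv3, Ndufs5 and Ndufa5, with log2 fold changes between 0.23 (Ndufb10) and 0.48 (Ndufb6). Among these, Ndufb9 is a subunit of the family that binds the acyl carrier protein, Ndufs6 binds zinc in the N module, and Ndufa9 helps to join the matrix arm to the membrane arm. The members furthest from a call were Ndufa6, another binder of the acyl carrier protein, with 29, 25.9 and 29.5 CPM in nTreg mutant against 27.8, 27.5 and 30.2 CPM in nTreg WT libraries, and the 2 core subunits Ndufs7 and Ndufs3 described above. Ndufa6 was the single member with a negative value (-0.02 ± 0.08, edgeR adjusted p = 0.863), and its 95% interval ran from -0.19 to 0.15.

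The nTreg calls differed in how firmly they stood. When each of the 12 libraries was left out in turn, 11 members kept their call every time, namely Ndufa10, Ndufa12, Ndufa8, Ndufc1, Ndufc2, Ndufb9, Ndufv2, Ndufa4, Ndufa9, Ndufs6 and Ndufb6. The number called higher ran from 11 to 19, and it was 11 without nTreg WT library 1 and 11 without nTreg WT library 2. nTreg mutant library 1, which had the highest CD8 and NK marker sum, was also the highest of its group for 30 of the 36 members. iTreg WT library 3 was the highest of its group for 30 members as well, where the CD8 and NK sums were 34.3 to 45.4 CPM. When nTreg mutant library 1 was left out, 15 members were called higher and 0 lower. The part of other cell types in the difference was not tested.

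**Figure D2:**
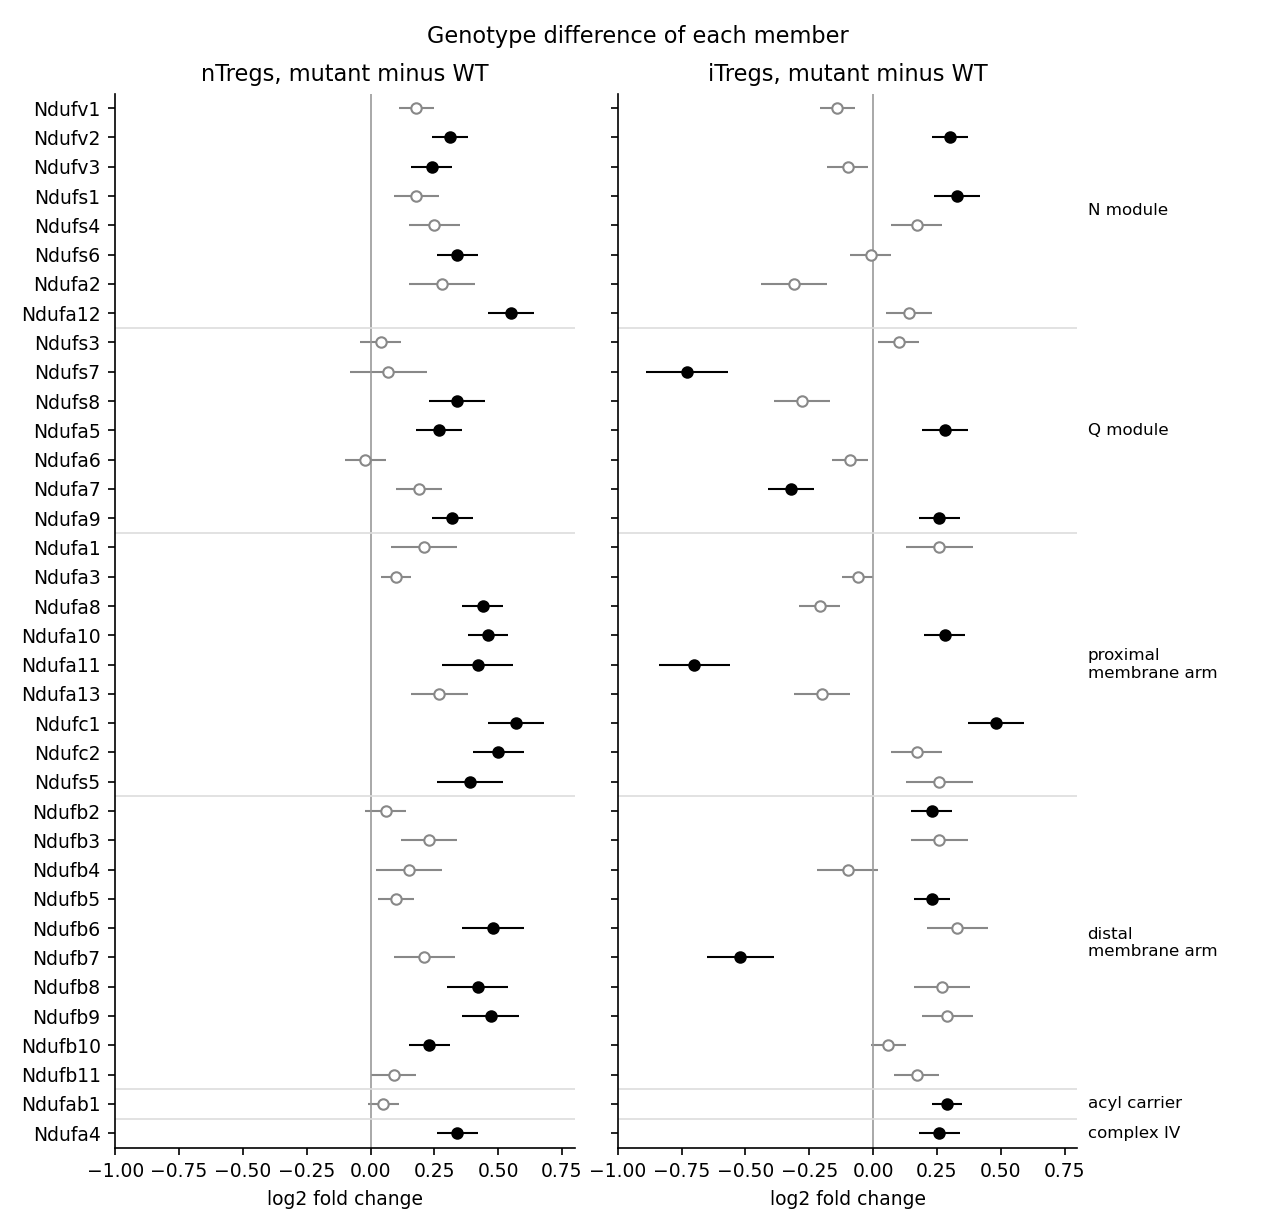
Log2 fold change, Gclc mutant over WT, for each of the 36 members in nTregs and in iTregs, ordered by module, with bars for the standard error and filled symbols for members called at an adjusted p below 0.05. In nTregs 35 of 36 members lie above 0, whereas in iTregs 22 do and the largest negative values are those of Ndufs7 (-0.73) and Ndufa11 (-0.70).

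In induced iTregs the same genes moved in both directions. Of the 36 members, 10 rose and 4 fell in the mutant relative to WT. Over all genes 14% rose and 11.4% fell, so the members' share of higher calls was above the background and their share of lower calls was close to it. The median log2 fold change was 0.17, beside 0.04 over all genes, and 22 of 36 values were positive. In 18 members every mutant library lay above every WT library, and in 7 every mutant library lay below, where over all genes 26.8% separated upwards and 19.7% downwards. The 7 of 36 are thus near the background. The N module had 2 of 8 members higher and 0 lower, the Q module 2 of 7 higher and 2 lower, the proximal arm 2 of 9 higher and 1 lower, and the distal arm 2 of 10 higher and 1 lower. These splits moved with the scaling described below, and with library size alone the Q module had 0 higher and 3 lower.

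The members that fell were Ndufa11, Ndufs7, Ndufb7 and Ndufa7. Ndufa11 (ENSMUSG00000002379, GRCm38 chromosome 17, 56717762 to 56724248, plus strand), a membrane subunit at the contact with complex III in respiratory supercomplexes, had 6.97, 6.68 and 9.26 CPM in iTreg mutant and 11.8, 11.8 and 13.5 CPM in iTreg WT libraries. It fell by 0.70 on the log2 scale (SE 0.14, edgeR adjusted p = 0.00535). Ndufs7 (ENSMUSG00000020153, GRCm38 chromosome 10, 80249121 to 80256794, plus strand) had 5.62, 6.21 and 8.29 CPM in iTreg mutant and 11.6, 11.7 and 10.2 CPM in iTreg WT libraries, and fell by 0.73 (SE 0.16, adjusted p = 0.0066). In both genes mutant library 4 stood closest to WT without reaching it.

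Ndufb7 (ENSMUSG00000033938, GRCm38 chromosome 8, 83566671 to 83571626, plus strand), a distal subunit that faces the intermembrane space, had 12, 11.8 and 15.1 CPM in iTreg mutant and 19.9, 18.3 and 17.8 CPM in iTreg WT libraries, and fell by 0.52 (SE 0.13, edgeR adjusted p = 0.0116). Ndufa7 (ENSMUSG00000041881, GRCm38 chromosome 17, 33824591 to 33838316, plus strand), an accessory subunit of the Q module, had 14.1, 13.7 and 14.3 CPM in iTreg mutant and 16.3, 17.3 and 19 CPM in iTreg WT libraries, and fell by 0.32 (SE 0.09, adjusted p = 0.0278). All 4 genes had separate groups. Because reads that align to several places were counted at each, the values of Ndufa11, Ndufs6, Ndufb4 and Ndufab1 are uncertain to the extent that near-identical copies share reads with them.

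Of the members that rose, Ndufab1 (ENSMUSG00000030869, GRCm38 chromosome 7, 122085403 to 122101886, minus strand) had 41.9, 41.3 and 41 CPM in iTreg mutant and 33.9, 33.5 and 34.2 CPM in iTreg WT libraries, and rose by 0.29 ± 0.06 (edgeR adjusted p = 0.00802). Ndufc1 (ENSMUSG00000037152, GRCm38 chromosome 3, 51404677 to 51408988, minus strand) had 15.9, 14.8 and 16.5 CPM in iTreg mutant and 10.3, 10.9 and 12.6 CPM in iTreg WT libraries, 0.48 ± 0.11 higher (adjusted p = 0.00878). Ndufv2 had 87.3, 85.9 and 87.4 CPM in iTreg mutant and 66.5, 67.5 and 77.9 CPM in iTreg WT libraries, 0.30 ± 0.07 higher (adjusted p = 0.0115). The 3 genes differed in spread, since the Ndufab1 libraries of each genotype lay within 1 CPM of each other while Ndufv2 varied more among WT libraries.

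Ndufs1 had 101, 102 and 92.1 CPM in iTreg mutant and 76.5, 76.4 and 82.4 CPM in iTreg WT libraries (0.33 ± 0.09, edgeR adjusted p = 0.024), and Ndufa10 had 84.8, 84.7 and 80.3 CPM in iTreg mutant and 69.2, 64.7 and 71.9 CPM in iTreg WT libraries (0.28 ± 0.08, adjusted p = 0.0199). The remaining members called higher were Ndufb5, Ndufb2, Ndufa5, Ndufa9 and Ndufa4, between 0.23 and 0.28. The other core subunits did not pass. Ndufv1 had 42.3, 40.8 and 46 CPM in iTreg mutant against 47.2, 46.8 and 48.5 CPM in iTreg WT libraries (-0.14 ± 0.07, adjusted p = 0.164). Ndufs8 had 19, 18 and 23.4 CPM in iTreg mutant against 24.2, 24.5 and 24.9 CPM in iTreg WT libraries (-0.28 ± 0.11, adjusted p = 0.0654). Both had every mutant library below every WT library. Ndufs3 had 39.5, 41.4 and 44.2 CPM in iTreg mutant against 40.1, 36.3 and 40.2 CPM in iTreg WT libraries (0.10 ± 0.08, adjusted p = 0.36), with overlap. The members furthest from a call were Ndufs6, with 19.6, 19.8 and 20.2 CPM in iTreg mutant against 19.2, 19.4 and 21.3 CPM in iTreg WT libraries, Ndufb10, with 28.9, 27.2 and 27.7 CPM against 27.4, 24.9 and 28.3 CPM, and Ndufb4, with 11.3, 8.82 and 11.3 CPM against 12.2, 10.6 and 10.9 CPM.

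Single libraries moved the iTreg count far. The number of members called higher ran from 1 to 14 over the 12 fits that left out a library, and it was 3 without iTreg mutant library 1, 3 without iTreg mutant library 2, 1 without iTreg WT library 1 and 2 without iTreg WT library 2. The number called lower ran from 2 to 8, with 2 without iTreg mutant library 1 and 8 without nTreg mutant library 1, although that library is in neither of the groups compared. Ndufa11, Ndufs7 and Ndufab1 kept their calls in all 12 fits, with highest adjusted p-values of 0.0282, 0.0333 and 0.0423 by edgeR. Ndufc1 kept it in 11, and its adjusted p was 0.0549 without iTreg WT library 1. Ndufv2 and Ndufb7 kept theirs in 10, with highest adjusted p-values of 0.0708 and 0.0568, both without iTreg WT library 1. Ndufs1, Ndufa10, Ndufb5 and Ndufa7 kept theirs in 8, Ndufa9 in 7, Ndufa4 in 6, Ndufa5 in 3 and Ndufb2 in 2.

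The balance of the iTreg calls also depended on the scaling. The iTreg mutant libraries had the lowest TMM factors of the series, so that TMM raised their values relative to library size. Members higher and lower numbered 10 and 4 with TMM, 12 and 6 with RLE (the median-ratio scaling of DESeq2), 7 and 7 with upper quartile scaling, 5 and 6 with TMM computed on protein-coding genes, and 4 and 8 with library size alone. With library size alone 8.93% of all genes rose and 16.2% fell, so the members' share of lower calls was then above the background. The median of the members was 0.17, 0.15, 0.10, 0.12 and 0.08 in the same order, and the median of all genes was 0.04, 0.02, -0.01, 0.00 and -0.04. The distance of the members' median from that of all genes was therefore between 0.11 and 0.13 under each of the 5 scalings. The share of higher calls among all calls over all genes was 55.2% with TMM, 53.8% with RLE, 42% with upper quartile, 43% with protein-coding TMM and 35.5% with library size.

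**Figure D3:**
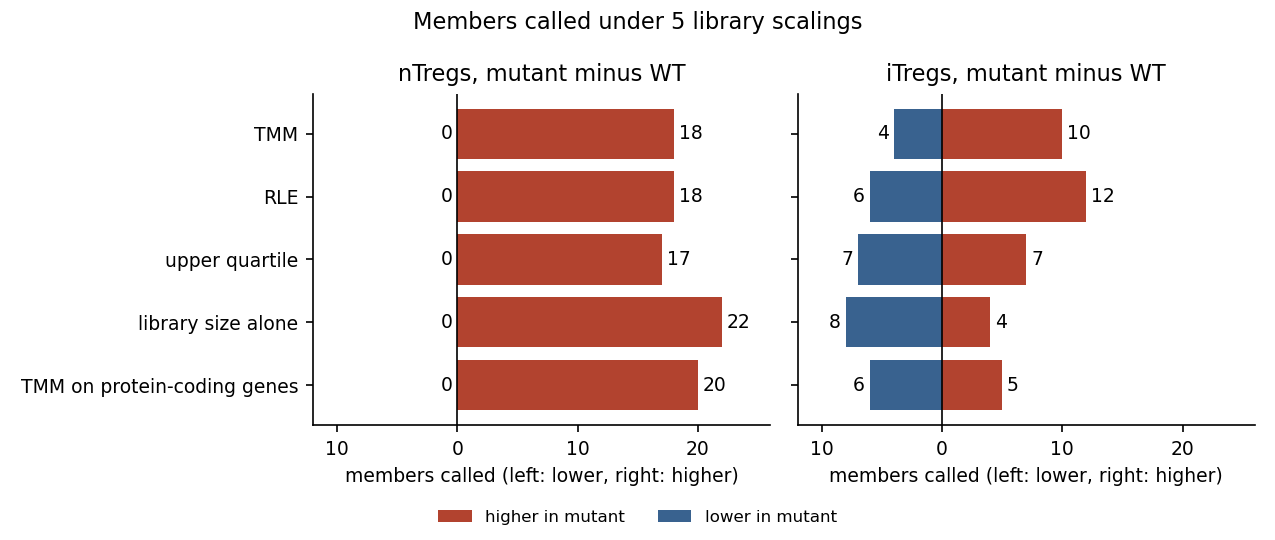
Number of complex I members called higher and lower in the Gclc mutant under 5 library scalings, in nTregs and in iTregs. In iTregs the calls move between 10 higher and 4 lower with TMM and 4 higher and 8 lower with library size alone, whereas in nTregs between 17 and 22 members are higher and 0 are lower under each scaling.

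Some members kept their call under all 5 scalings. Ndufs1, Ndufc1, Ndufab1 and Ndufv2 were higher and Ndufa11, Ndufs7, Ndufb7 and Ndufa7 were lower each time. The summed CPM of the members in iTregs, at the plain library size, were 1190, 1170 and 1240 in mutant and 1160, 1130 and 1200 in WT libraries, which overlapped. At the TMM library size they were 1310, 1260 and 1300 in mutant and 1160, 1130 and 1230 in WT libraries, which did not. In nTregs the scaling mattered less. There 18 members were higher with TMM, 18 with RLE, 17 with upper quartile, 22 with library size and 20 with protein-coding TMM, and none were lower under any of the 5.

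In iTregs the fold change of a member ran with its base composition. Coding sequences are shown by the middle 90 bases, aligned to codons, of the 4 members that fell and of the 4 that rose with the smallest p. They were cut from the GRCm38 genome by the GENCODE annotation and are written 5′ to 3′ on the coding strand, with G and C in capitals.
Ndufa11: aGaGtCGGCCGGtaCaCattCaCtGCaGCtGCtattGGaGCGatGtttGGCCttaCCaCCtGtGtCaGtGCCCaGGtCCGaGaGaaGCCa
Ndufs7: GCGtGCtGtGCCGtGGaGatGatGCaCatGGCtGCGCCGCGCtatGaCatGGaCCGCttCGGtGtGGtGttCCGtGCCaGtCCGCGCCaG
Ndufb7: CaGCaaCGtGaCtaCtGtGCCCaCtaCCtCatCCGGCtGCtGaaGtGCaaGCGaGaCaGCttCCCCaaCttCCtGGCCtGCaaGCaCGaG
Ndufa7: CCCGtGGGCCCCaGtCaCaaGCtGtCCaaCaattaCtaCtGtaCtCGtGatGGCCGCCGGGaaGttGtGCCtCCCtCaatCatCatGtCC
Ndufab1: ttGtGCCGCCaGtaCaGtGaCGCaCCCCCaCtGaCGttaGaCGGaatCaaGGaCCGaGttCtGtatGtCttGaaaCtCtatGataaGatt
Ndufc1: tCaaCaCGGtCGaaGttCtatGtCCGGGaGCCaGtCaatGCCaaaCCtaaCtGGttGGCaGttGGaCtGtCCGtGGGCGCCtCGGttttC
Ndufv2: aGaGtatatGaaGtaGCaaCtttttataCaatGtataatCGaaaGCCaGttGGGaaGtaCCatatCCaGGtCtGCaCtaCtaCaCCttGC
Ndufa10: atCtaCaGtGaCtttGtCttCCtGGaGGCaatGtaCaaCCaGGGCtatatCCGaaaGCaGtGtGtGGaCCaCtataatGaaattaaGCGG
G and C made up 56.7% of the stretch in Ndufa11, 65.6% in Ndufs7, 58.9% in Ndufb7 and 56.7% in Ndufa7, and 47.8% in Ndufab1, 55.6% in Ndufc1, 38.9% in Ndufv2 and 44.4% in Ndufa10. Over whole coding sequences the GC content was 58.7%, 61.6%, 61.1% and 59.3% in the 4 members that fell, and between 45.1% (Ndufs1) and 59.0% (Ndufb2) in the 10 that rose, so the ranges overlapped.

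Across the 36 members the iTreg log2 fold change fell as transcript GC content rose, with Pearson's r = -0.70 and Spearman's rho = -0.66, and r = -0.62 without Ndufs7 and Ndufa11. With the GC content of the coding sequence r was -0.71. In nTregs r was -0.08. These are descriptions across genes, which share their libraries and are not independent replicates. Over 17886 genes the values were -0.23 and -0.35 in iTregs, so that the relation was present beyond complex I. Among the 18 members below the median GC content (40.3% to 50.3%) 9 rose and 1, Ndufa7, fell, with a median of 0.26. Among the 18 above it (51.3% to 60.4%) 1, Ndufa10, rose and 3 fell, with a median of -0.10. In nTregs 10 members below and 8 above the median GC content rose, with medians of 0.29 and 0.24.

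**Figure D4:**
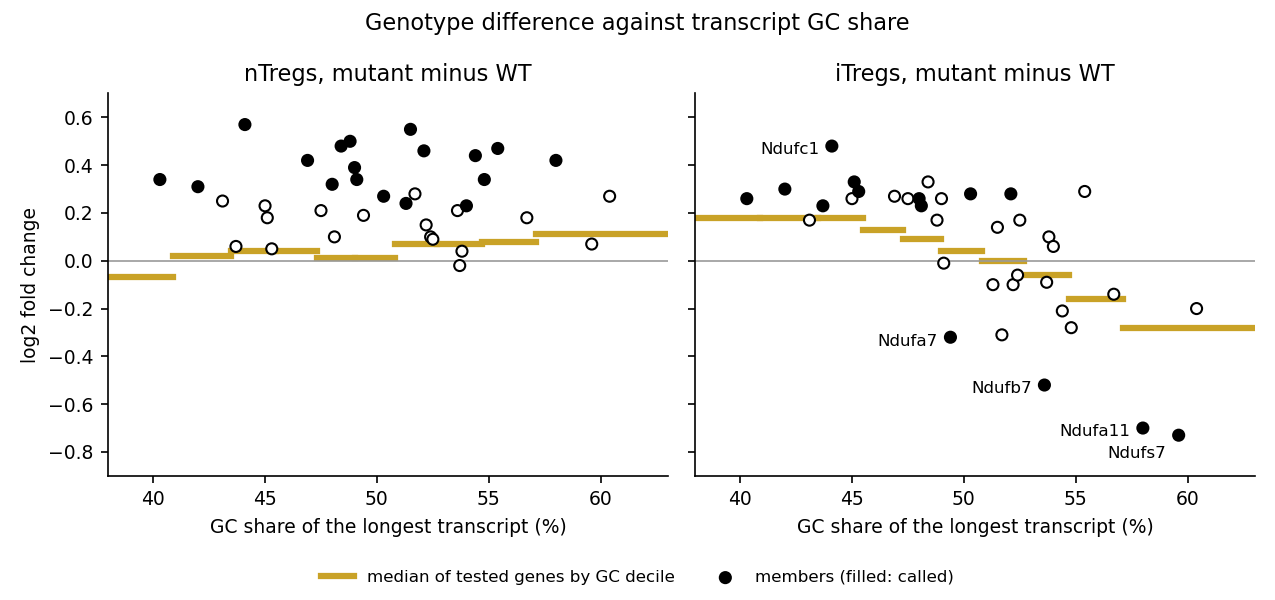
Log2 fold change, Gclc mutant over WT, against transcript GC content in percent for the 36 members in nTregs and iTregs, with filled symbols for members called and horizontal bars for the median of all genes in each decile of GC content, clipped to the axis. In iTregs the decile medians of all genes run from 0.18 at the lowest to -0.28 at the highest GC content and the members fall from left to right as well, while in nTregs the medians run from -0.07 to 0.11.

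The trend with GC content varied between libraries. Taken as the median of the highest GC decile minus that of the lowest, relative to the mean of all libraries, it was -0.35, -0.46 and -0.10 (log2) in iTreg mutant and 0.19, 0.13 and 0.14 in iTreg WT libraries. It was 0.07, 0.33 and 0.10 in nTreg mutant and -0.10, -0.16 and 0.15 in nTreg WT libraries. iTreg mutant library 4, which stood nearest to WT in this measure, was also the mutant library nearest to WT for Ndufa11, Ndufs7, Ndufb7, Ndufs8, Ndufa8 and, by a narrow margin, Ndufa7. When the smooth trend with GC content was removed from every library, a step chosen after seeing the data, 2 members were higher in iTregs (Ndufa10 and Ndufb9) and the same 4 were lower, against a background of 6.47% and 10.4% of all genes. Under that step Ndufa11 was at -0.48, Ndufs7 at -0.47, Ndufb7 at -0.46 and Ndufa7 at -0.41. The nTreg count was 12 higher and 0 lower, where over all genes 15.7% were higher and 21.9% lower. The step removes every trend with GC content whatever its source. It also re-centres each library on the mean level of its tested genes, so the scaling changed along with it. The median of all genes went from 0.04 to -0.04 in nTregs and from 0.04 to -0.00 in iTregs. The parts of GC content and of this shift in the iTreg result were not tested further.

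The genotype difference itself was set against each other in the 2 kinds of Treg by the interaction term of the same fit. For 6 of the 36 members the mutant-minus-WT difference was higher in nTregs than in iTregs, and for 0 it was lower. Over all genes these shares were 7.18% and 6.12%. The members were Ndufa11, Ndufa8, Ndufb7, Ndufs8, Ndufs7 and Ndufa7, that is 3 of the 7 in the Q module, 2 of the 9 in the proximal arm, 1 of the 10 in the distal arm and 0 of the 8 in the N module. The median of the difference over the members was 0.16, beside 0.00 over all genes.

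Ndufa11 showed the widest difference. It had 14.4, 12.5 and 12 CPM in nTreg mutant against 9.13, 8.79 and 11.2 CPM in nTreg WT libraries, a rise of 0.42 ± 0.14 on the log2 scale, while in iTregs it fell by 0.70 (SE 0.14). The effects differed by 1.11 ± 0.20 (edgeR adjusted p = 0.00598). It was the single member called higher in nTregs and lower in iTregs, and its nTreg call was kept in 7 of the 12 fits that left out a library, with an adjusted p of 0.127 without nTreg WT library 2. Ndufa8 had 23.9, 24.9 and 27 CPM in iTreg mutant against 28, 27.8 and 32.1 CPM in iTreg WT libraries, so that the effect was 0.44 in nTregs and -0.21 in iTregs, and the effects differed by 0.65 ± 0.12 (adjusted p = 0.00613). For both genes the mutant libraries were the higher ones in nTregs and the lower ones in iTregs, without overlap.

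Ndufb7 had 23.9, 23.3 and 21.2 CPM in nTreg mutant against 17.1, 18.8 and 23.3 CPM in nTreg WT libraries, and the effects, 0.21 in nTregs and -0.52 in iTregs, differed by 0.73 ± 0.18 (edgeR adjusted p = 0.0196). Ndufs8 differed by 0.62 ± 0.15 (adjusted p = 0.02) and Ndufs7 by 0.80 ± 0.22 (adjusted p = 0.0312). Ndufa7 had 19.6, 23.7 and 21.7 CPM in nTreg mutant against 20, 17.2 and 19.8 CPM in nTreg WT libraries, and its effects differed by 0.51 ± 0.13 (adjusted p = 0.0269). For Ndufs7, Ndufb7 and Ndufa7 the nTreg groups overlapped and the iTreg groups did not.

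**Figure D5:**
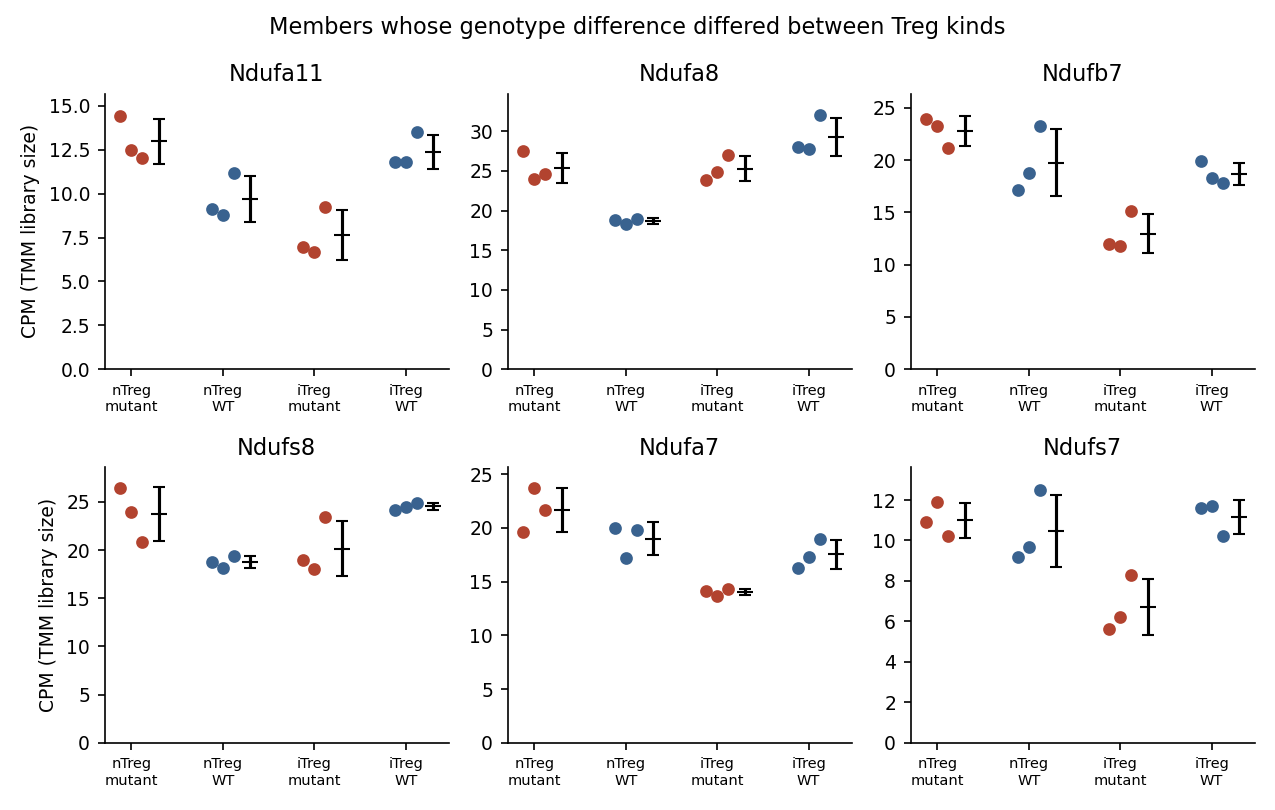
CPM at the TMM library size of the 6 members whose genotype difference differed between nTregs and iTregs, by group, with 1 point per library and the mean ± SD over 3 libraries. Ndufa11, Ndufa8 and Ndufs8 have nTreg mutant libraries above nTreg WT and iTreg mutant libraries below iTreg WT, and for Ndufs7, Ndufb7 and Ndufa7 the nTreg groups overlap.

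The number of members with such a difference moved with single libraries and with the scaling. It ran from 2 to 12 over the fits that left out a library, with 2 without iTreg mutant library 1, 2 without iTreg mutant library 2, 2 without nTreg WT library 2 and 12 without nTreg mutant library 1. Ndufa11 and Ndufa8 kept their calls in all 12 fits (highest edgeR adjusted p 0.0231 and 0.024), Ndufs8 in 9, Ndufb7 in 7, Ndufa7 in 6 and Ndufs7 in 5. With RLE, upper quartile, protein-coding TMM and library size the count was 9, 10, 12 and 16, and 0 members were lower under any of the 5 scalings. The share of all genes called higher moved with it, at 7.57%, 8.19%, 10% and 13.3%. Library size alone moved the median of all genes to 0.14 in this comparison, and the members' median was 0.29. With the GC trend removed, 4 members remained higher, namely Ndufa11 (0.77), Ndufb7 (0.58), Ndufa7 (0.53) and Ndufa8 (0.46), against 2.99% of all genes.

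The 2 genotype comparisons share no library. The 18 members higher in nTregs and the 10 higher in iTregs had 6 in common, which is 33.3% of the nTreg list and 60% of the iTreg list. These were Ndufa10, Ndufa4, Ndufa5, Ndufa9, Ndufc1 and Ndufv2. Of all 36 members 50% were higher in nTregs and 27.8% in iTregs, so the shares in common were near those among all members. The sign was positive in both kinds for 22 members, and positive in nTregs but negative in iTregs for 13.

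The promoters of Ndufa11, Ndufa8 and Ndufs7 are shown because the genotype effects on these genes went apart between the kinds of Treg, the first pair with calls kept in every leave-one-out fit and Ndufs7 with the largest difference after Ndufa11. The windows run from 250 bases before to 50 after the start in RefSeq (GRCm38.p6), are written 5′ to 3′ on the gene's strand, and lie at chr17:56717512-56717811 (plus strand), chr2:36049289-36049588 (minus strand) and chr10:80249199-80249498 (plus strand). Capitals mark CATGCGC, the core of the NRF1 site, in Ndufa11 and Ndufa8, and AAGATGG, the core of the YY1 site, in Ndufs7.
Ndufa11 promoter: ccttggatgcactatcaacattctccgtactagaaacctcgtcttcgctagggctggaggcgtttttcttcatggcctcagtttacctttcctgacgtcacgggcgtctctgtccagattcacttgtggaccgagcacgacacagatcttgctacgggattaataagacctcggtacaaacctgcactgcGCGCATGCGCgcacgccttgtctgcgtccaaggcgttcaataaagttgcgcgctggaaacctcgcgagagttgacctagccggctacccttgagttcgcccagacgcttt
Ndufa8 promoter: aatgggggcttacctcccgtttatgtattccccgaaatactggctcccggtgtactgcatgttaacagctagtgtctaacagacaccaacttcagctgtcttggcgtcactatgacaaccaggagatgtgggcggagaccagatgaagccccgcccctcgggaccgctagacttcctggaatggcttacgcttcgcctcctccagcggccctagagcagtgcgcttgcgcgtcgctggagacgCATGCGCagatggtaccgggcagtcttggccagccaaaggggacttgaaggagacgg
Ndufs7 promoter: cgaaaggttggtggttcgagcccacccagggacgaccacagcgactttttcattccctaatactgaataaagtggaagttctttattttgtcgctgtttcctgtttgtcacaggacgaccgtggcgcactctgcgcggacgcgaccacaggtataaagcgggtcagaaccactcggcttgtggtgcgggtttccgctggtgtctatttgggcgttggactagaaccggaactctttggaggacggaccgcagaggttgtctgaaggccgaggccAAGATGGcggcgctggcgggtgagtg
In Ndufa11 the motif stood on both strands in overlap, so the capitals cover 1 palindromic run. RefSeq promoters were found for 33 of the 36 members, and Ndufs1, Ndufa2 and Ndufb9 had none in the table. On either strand, CATGCGC was present in 5 of the 33 (15.2%), against 4.41% of 27025 genes with a promoter. CCGGAAG, the core of ETS factors such as GABPA, was present in 4 (12.1%) against 9.93%, and AAGATGG in 7 (21.2%) against 7.28%. Of the 33, 14 held any of the 3. A match is a description of the letters in this window.

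Between the kinds of Treg the complex I genes stood higher in culture-induced iTregs than in sorted nTregs. In WT, 24 of the 36 members were higher in iTregs and 0 lower, where over all genes 33.7% were higher and 35.7% lower. The median log2 difference, iTreg minus nTreg, was 0.38 beside -0.02 over all genes, and 31 values were positive. By module 5 of 8 were higher in the N module, 4 of 7 in the Q module, 6 of 9 in the proximal and 7 of 10 in the distal arm. This comparison shares its WT libraries with the genotype comparisons. Culture, activation and origin of the cells and the markers of other cell types differ together between the kinds and cannot be told apart. The 8 B cell markers, for one, summed to 2.48 to 3.68 CPM in iTreg WT and 323 to 515 CPM in nTreg WT libraries.

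Ndufb6 (ENSMUSG00000071014, GRCm38 chromosome 4, 40270591 to 40279421, minus strand), a distal membrane subunit, had 23.3, 24.7 and 26.2 CPM in iTreg WT and 11.8, 12 and 13 CPM in nTreg WT libraries, 1.01 ± 0.12 higher on the log2 scale (edgeR adjusted p = 1.18e-05). Ndufc2 (ENSMUSG00000030647, GRCm38 chromosome 7, 97400003 to 97407802, plus strand) had 30, 29.3 and 30.8 CPM in iTreg WT and 14.7, 15.2 and 16.9 CPM in nTreg WT libraries, 0.95 ± 0.10 higher (adjusted p = 3.66e-06). Ndufa12 had 25.2, 22.5 and 26.8 CPM in iTreg WT and 15.2, 14.9 and 13.5 CPM in nTreg WT libraries (0.77 ± 0.09, adjusted p = 1.06e-05). In these 3 genes the groups were far apart relative to the spread of their libraries.

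Ndufa8 (0.65 ± 0.08), Ndufa10 (0.64 ± 0.08) and Ndufs6 (0.59 ± 0.08) followed, with edgeR adjusted p-values of 1.9e-05, 9.7e-06 and 3.86e-05. Ndufa8 had 28, 27.8 and 32.1 CPM in iTreg WT and 18.8, 18.3 and 19 CPM in nTreg WT libraries. Ndufa10 had 69.2, 64.7 and 71.9 CPM in iTreg WT and 44.1, 43.6 and 44.1 CPM in nTreg WT libraries. Ndufs6 had 19.2, 19.4 and 21.3 CPM in iTreg WT and 12.1, 13 and 14.6 CPM in nTreg WT libraries. Of the core subunits Ndufv1 (0.32 ± 0.07, adjusted p = 0.00149), Ndufv2 (0.43 ± 0.07, adjusted p = 0.000166) and Ndufs8 (0.39 ± 0.11, adjusted p = 0.00586) were higher. Ndufs1, Ndufs3 and Ndufs7 did not pass, with differences of -0.01, 0.01 and 0.09. The members furthest from a call were Ndufa3, with 36, 34.1 and 38.3 CPM in iTreg WT and 37.5, 35.4 and 35.7 CPM in nTreg WT libraries, Ndufs1 and Ndufs3. When each library was left out in turn the count of higher members stayed between 22 and 26 with 0 lower, and under the 5 scalings between 23 and 27.

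In the Gclc mutant, 19 of 36 members were higher in iTregs than in nTregs and 7 were lower, where over all genes 33.2% were higher and 35% lower. The members that were lower were Ndufb7 (-0.81 ± 0.12), Ndufa11 (-0.76 ± 0.14), Ndufs7 (-0.72 ± 0.16), Ndufa7 (-0.63 ± 0.09), Ndufa13 (-0.61 ± 0.11), Ndufv3 (-0.20 ± 0.08) and Ndufa3 (-0.17 ± 0.06), with edgeR adjusted p-values between 7.56e-05 for Ndufa7 and 0.0378 for Ndufv3. Ndufa13, also known as GRIM-19, a subunit at the join of the arms, had 17.6, 17 and 21.9 CPM in iTreg mutant and 28.9, 29.7 and 27.3 CPM in nTreg mutant libraries. In WT libraries Ndufa13 had 22.2, 20.6 and 21.9 CPM in iTregs and 22.5, 21.5 and 27.1 CPM in nTregs. Its mutant groups were separate and its WT groups overlapped. The largest differences the other way were those of Ndufb6 (0.87 ± 0.12) and Ndufc2 (0.62 ± 0.10). With library size alone the split in the mutant was 11 higher and 11 lower. Over all genes 24.5% were then higher and 43.6% lower, with a median of -0.20. With the GC trend removed the split was 28 higher and 4 lower, where over all genes 47% were higher and 24.9% lower. The median of all genes was then 0.25, against -0.02 in the main fit, so the values below are to be read beside that shift. Under that step Ndufa3 was higher (0.20 ± 0.06, edgeR adjusted p = 0.0118), Ndufv3 was at 0.15 (adjusted p = 0.112) and Ndufa13 at -0.17 (adjusted p = 0.0534), so that the calls of these 3 as lower were lost, while Ndufb7, Ndufa11, Ndufs7 and Ndufa7 were still called lower.

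The members covered a wide range of levels when set per kilobase of the deposited gene length. In nTreg mutant libraries the highest mean was 54.3 CPM per kb for Ndufb9 and the lowest 2.87 for Ndufb2, and in nTreg WT libraries 50.9 for Ndufa6 and 2.76 for Ndufb2. In iTreg mutant libraries the extremes were 72.0 for Ndufa4 and 2.87 for both Ndufa11 and Ndufb7, and in iTreg WT libraries 66.0 for Ndufa6 and 3.62 for Ndufb2. The ratio of the highest to the lowest was 18.9, 18.4, 25.1 and 18.2 in these groups, and the medians were 20.6, 18.2, 21.9 and 21 CPM per kb. Ndufa6, Ndufa4 and Ndufb9 held the first 3 ranks in each of the groups. In nTreg mutant libraries they stood at 50.3 ± 3.46, 53.0 ± 5.76 and 54.3 ± 8.88 CPM per kb (SD, n = 3), so their order there was within the spread between libraries. The deposited length counts all annotated exons of a gene, and a gene with many long annotated transcripts gets a lower value per kb.

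The remaining genes of the respiratory chain give the setting of these differences. Of the 38 nuclear genes of complexes II to V, 29 (76.3%) were higher and 0 lower in nTreg mutants, with a median of 0.38. Over all genes 19.3% were higher and 15.6% lower. In iTreg mutants 11 (28.9%) were higher and 2 (5.26%) lower, beside 14% and 11.4% of all genes, with a median of 0.21. With library size alone 4 were higher and 4 lower, where over all genes 8.93% were higher and 16.2% lower. Those higher in nTregs included Uqcr10 of complex III (0.74 ± 0.12), Cox8a of complex IV (0.58 ± 0.09) and Atp5g1, which makes the ring of ATP synthase (0.54 ± 0.08). Atp5g1 had 30.4, 27.4 and 28.7 CPM in nTreg mutant against 20.6, 19.8 and 19.2 CPM in nTreg WT libraries, and 24.3, 24.4 and 28.8 CPM in iTreg mutant against 32.8, 33.8 and 33 CPM in iTreg WT libraries. Its effects differed by 0.90 ± 0.11 (edgeR adjusted p = 0.00167). In WT, 35 of the 38 were higher in iTregs than in nTregs and 0 were lower, where over all genes 33.7% were higher and 35.7% lower.

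The mitochondrially encoded complex I subunits had a separate pattern of calls, which was not tested against that of the nuclear members. Of the 7, 1 was higher in nTreg mutants, mt-Nd2 (0.59 ± 0.13, edgeR adjusted p = 0.00559), and none was lower. That share of higher calls, 14.3%, was below the 19.3% of all genes. In iTreg mutants 5 were higher (71.4%, beside 14% of all genes) and 0 lower with TMM. With library size alone 2 were higher, where 8.93% of all genes were. The largest difference in iTregs with TMM was that of mt-Nd6, encoded on the other strand from the rest. It had 219, 113 and 83.2 CPM in iTreg mutant and 51.5, 55.3 and 70.5 CPM in iTreg WT libraries (1.23 ± 0.30, edgeR adjusted p = 0.0122). In nTregs it had 14.9, 8.42 and 13.8 CPM in mutant and 13.5, 12.7 and 17.1 CPM in WT libraries. The mutant iTreg libraries thus varied widely among themselves, with the highest in library 1. The effects differed between the kinds for mt-Nd6 (-1.46 ± 0.44, adjusted p = 0.045) and mt-Nd3 (-0.60 ± 0.17, adjusted p = 0.0405), with the higher effect in iTregs.

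Of the 18 tested assembly factors of complex I, 7 were higher and 1 lower in nTreg mutants, and 3 were higher and 0 lower in iTreg mutants with TMM, against 2 and 3 with library size alone. The nTreg share called higher was 38.9%, beside 19.3% of all genes, and the iTreg share was 16.7%, near the 14% of all genes. Ndufaf2, which Ndufa12 replaces late in assembly, had 6.51, 5.2 and 5.17 CPM in nTreg mutant and 3.63, 3.27 and 3.35 CPM in nTreg WT libraries (0.72 ± 0.13, edgeR adjusted p = 0.00147). Tmem126b, which acts in the assembly of the membrane arm, had 20.2, 20.4 and 19.6 CPM in nTreg mutant and 25.5, 26.2 and 24.4 CPM in nTreg WT libraries, and fell by 0.34 (SE 0.07, adjusted p = 0.00383). Ecsit, which works in the same assembly complex as Tmem126b, rose in nTregs (0.46 ± 0.11, adjusted p = 0.0067) and was at -0.30 ± 0.11 in iTregs (adjusted p = 0.0563), and its effects differed by 0.76 ± 0.15 (adjusted p = 0.00928). In iTregs Tmem70 (0.58 ± 0.10), Ndufaf1 (0.43 ± 0.11) and Acad9 (0.27 ± 0.06) rose. Of 11 tested regulators of mitochondrial biogenesis, 0 were higher and 1 lower in nTreg mutants, where over all genes 19.3% were higher and 15.6% lower. In iTreg mutants 3 were higher and 3 lower with TMM (14% and 11.4% of all genes), against 2 and 5 with library size alone (8.93% and 16.2%). Among the 3 that were lower with TMM were the nuclear receptor Esrra (-0.71 ± 0.17, edgeR adjusted p = 0.0117) and the coactivator Ppargc1b (-0.76 ± 0.23, adjusted p = 0.029). As many regulators rose, and the median of the 11 was 0.06.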

How the data were processed

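The values are raw gene counts, 1 file per library. Per the file headers, the authors counted reads with featureCounts 1.5.2 on Ensembl release 87 (GRCm38), reverse-stranded, and a read with several alignments was counted at each of them. According to the submitters' processing notes, bcl2fastq 2.18.0.12, STAR 2.5.2b and Subread 1.5.2 were used with mm10. Per the labels' protocols, RNA came from a NucleoSpin kit and libraries from the TruSeq Stranded mRNA kit. How reads were trimmed, and whether duplicates were removed, is not stated there.

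Symbols were found for 49326 of 49671 genes, leaving 345 without. edgeR 4.0.16 (R 4.3.3) tested the 17977 genes kept by filterByExpr with TMM scaling, 1 mean per group (4 groups, 8 residual degrees of freedom), the quasi-likelihood F-test (two-sided) and Benjamini-Hochberg adjustment within a comparison. Calls are below 0.05, and log2 fold changes are the fitted values. The script was tested on simulated data. Alternatives were other scalings, filters, DESeq2 1.42.0, the compared libraries alone, replicate blocks and leaving out each library. Removal of the GC trend was added after seeing the data.

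The members, lists and tests were chosen with earlier results of these data known. Values per library are given for Gclc, Foxp3, the core subunits, and, per comparison, up to 6 called members with the smallest p, up to 3 not called with the largest, and those called in the minority direction. Of other lists, up to 5 called members per comparison were named, with the mitochondrial complex I genes. A gene of that rule is not reported here. Library values of Ndufa13, Atp5g1, Ndufaf2 and Tmem126b were chosen after their values were seen. Transcript GC came from GENCODE vM21 and promoters from RefSeq GRCm38.p6. Counts between replicates differed by more than sampling noise (chi-square per degree of freedom 4.2 to 47.2).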

Additional observations from a re-analysis of the deposited data

Results flagged for a closer look

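For 6 complex I members the genotype difference, Gclc mutant minus WT on the log2 scale, was not the same in nTregs and iTregs by a test of that difference itself (edgeR's interaction term, adjusted over all genes). The effect in nTregs minus that in iTregs was 1.11 for Ndufa11, 0.80 for Ndufs7, 0.73 for Ndufb7, 0.65 for Ndufa8, 0.62 for Ndufs8 and 0.51 for Ndufa7. The mutant was above WT in nTregs and below it in iTregs, without overlap of libraries, for Ndufa11, Ndufa8 and Ndufs8. The sizes of the remaining 3 come with overlapping nTreg groups. iTreg mutant library 4 was the mutant library nearest to WT for all 6, though for Ndufa7 by a narrow margin.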

How the results depend on the processing

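In nTregs 18 members were higher in the mutant, and the fit of the compared libraries alone gave 11. In iTregs (10 higher, 4 lower) the higher count was 6 with no filter, 5 with TMM on protein-coding genes, 4 with library size alone and 2 with the GC trend removed, and the lower count was 7 with upper quartile scaling, 7 in the compared libraries alone, and 8 with library size alone. The count of members whose difference was higher in nTregs (6) was 10 with upper quartile scaling, 16 with library size alone, 12 with TMM on protein-coding genes, 12 with a filter of 1 CPM in 3 libraries and 12 with DESeq2, which also gave 1 lower. The mutant iTreg minus nTreg counts (19 higher, 7 lower) were 11 and 11 with library size alone (24.5% and 43.6% of all genes). With the GC trend removed 4 were lower (24.9% of all genes). The cause of these changes was not tested. For the filters, DESeq2, the compared libraries alone, the replicate blocks and the fits that left out a library, the share of all genes called was not computed. Whether those member counts moved apart from the background is therefore not shown.

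Leaving out 1 library gave 11 to 19 higher and 0 to 0 lower in nTregs, 1 to 14 higher and 2 to 8 lower in iTregs, 2 to 12 higher and 0 to 0 lower for the difference, 22 to 26 higher and 0 to 0 lower for WT iTregs against nTregs, and 16 to 19 higher and 5 to 7 lower for mutant iTregs against nTregs.

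With the GC trend removed the sign turned for 4 members in nTregs, 3 in iTregs and 3 in the difference, none of them called in either fit. It turned for 4 members in WT iTreg minus nTreg, of which Ndufs1 (0.25) and Ndufa3 (0.27) were called in at least 1 fit. In mutant iTreg minus nTreg it turned for 7, of which Ndufv1 (0.37), Ndufv3 (0.15), Ndufa3 (0.20), Ndufa8 (0.36) and Ndufb10 (0.24) were called in at least 1 fit. The median of all genes moved as well, from -0.02 to 0.22 in WT and from -0.02 to 0.25 in the mutant.

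Whether the replicate numbers pair the libraries is not known from the labels. Deviations of same-numbered libraries correlated between -0.06 and 0.05, and those of other pairs between -0.09 and 0.09. Deviations from means of 3 libraries cannot exclude a pairing. With the replicate number as a block the counts were 15 higher and 0 lower in nTregs, 7 and 3 in iTregs, 4 and 0 for the difference, 24 and 0 for WT iTregs against nTregs and 19 and 6 for the mutant. With a block of genotype and number the WT counts were 24 and 0, and the mutant counts 19 and 5.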
